A study of Mus musculus with 24 samples.

Results

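This account covers the response to IL-15 of mouse spleen natural killer (NK) cells that lack FcRγ, the adaptor encoded by Fcer1g. It compares 4 libraries labelled KO and IL-15 treated with 4 libraries labelled KO and naive, chosen by their labels and not by any measured value, 8 of the 24 libraries in the series. The other spleen libraries, 4 naive WT and 4 IL-15 WT, entered the same fit and served to test whether the change differed between genotypes, and the 8 libraries from tumour-bearing lung were used in 1 alternative fit only. Poly(A) RNA was sequenced in bulk, and levels are given as counts-per-million (CPM). Libraries of a group are labelled as biological replicates, and p-values measure the spread between such samples. Strain, age and sex, the way the allele was made, the dose, route and duration of IL-15, the purity of the NK cells and whether each library was a separate animal are unknown from the sources used here. Nor is it given whether naive cells were cultured or handled as the treated cells were, so IL-15 and any difference in preparation cannot be told apart.

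IL-15 is a cytokine that NK cells need for survival and expansion. It is presented by neighbouring cells and is read through a receptor made of the IL-2 receptor β chain (Il2rb) and the common γ chain (Il2rg), which activate JAK kinases, STAT5 and the PI3K, AKT and mTORC1 pathway. FcRγ is an adaptor with an ITAM, the tyrosine motif that recruits SYK family kinases, and pairs with CD16 and NKp46 on NK cells, next to the related adaptors CD3ζ (Cd247) and DAP12 (Tyrobp).

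Fcer1g, the targeted gene (chr1:171229572-171234365, GRCm38, coordinates as in the deposited table), stood at 1.29, 7.13, 4.46 and 2.98 CPM in the 4 naive libraries and at 6.01, 3.91, 8.01 and 4.63 CPM in the 4 IL-15 libraries, so the groups overlapped. In WT it stood at 780 ± 78.6 CPM in naive WT and 276 ± 35.9 CPM in IL-15 WT. The 8 KO libraries held 9683382 to 30200109 counts and 12456 to 15749 genes with a read. KO naive replicate 1 stood apart before any comparison: it held 9683382 counts against 23302290 to 27460303 in the other naive KO libraries, a mitochondrial share of 1.18% against 4.19 to 9.28%, and −131.2 on the second principal component (14.2% of the variance) where the other 15 spleen libraries lay between −12.3 and 35.2. The first component (51.7% of the variance) separated naive from IL-15 libraries in both genotypes. The median SD of log2 CPM over genes was 0.248 in naive KO (0.168 without replicate 1) and 0.148 in IL-15 KO. Each result below is from edgeR's quasi-likelihood test with Benjamini-Hochberg adjustment over 13344 genes, a gene is said to have risen or fallen where the adjusted p was under 0.05, and log2 changes are IL-15 minus naive with their SE.

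IL-15-treated KO cells had more transcript of cell division, glycolysis, sterol synthesis and ribosome biogenesis genes and less of adhesion, homing, NK receptor and mature NK cell genes. Of 13344 genes, 2776 rose (20.8%) and 2793 fell (20.9%), and the change reached 2-fold for 1479 and 770 of them. Without KO naive replicate 1 the counts were 2880 and 2890, and 74 of 80 counts of risers or fallers over the 40 gene lists described below stayed within 1.5 times. The libraries of the 2 groups did not overlap for 4750 of the 5569 called genes and 5402 of all 13344 tested. The median change over all tested genes was −0.01, against which the lists below are read. After a correction for exon length and GC content the median was −0.12 and the counts 2458 higher and 3933 lower, so that 38.5% of called genes were higher in place of 49.8%. RNA in bulk samples does not tell fewer cells of a type from less RNA per cell.

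Other cell types were checked by summed markers in the 8 KO libraries, compared by an exact two-sided permutation test with 4 against 4 (smallest possible p = 0.0286). All 12 NK markers were detected. B cell markers, mostly Ighm with Pax5 at 0, went from 160 to 226 CPM to 126 to 140 CPM, and dendritic cell markers, mostly Itgax with Xcr1 and Siglech at 0, from 828 to 1017 CPM to 431 to 549 CPM. Neutrophil markers (7 of 12 at 0) went from 0.629 to 2.28 CPM to 0.151 to 0.391 CPM and erythroid markers from 1.16 to 2.57 CPM to 0.154 to 0.587 CPM. ILC2 and ILC3 markers (6 of 11 at 0) went from 65.2 to 108 CPM to 55.9 to 60.9 CPM. Plasma cell markers, mostly Xbp1, Prdm1 and, with IL-15, Irf4, went from 150 to 198 CPM to 229 to 259 CPM. Each of these 6 sums was at exact p = 0.0286 (0.0429 adjusted over the 12 lists). Mast cell and basophil markers, mostly Kit with Fcer1a at 0, went from 138 to 244 CPM to 237 to 334 CPM, and monocyte and macrophage markers from 14.4 to 22.4 CPM to 20.6 to 28.3 CPM (exact p = 0.0571 for both, adjusted 0.0686). Within the latter list Cd68 went up, from 0.695 to 7.7 CPM to 20.1 to 26.8 CPM. Lyz2 went down from 2.88 to 8.18 CPM to 0 to 0.154 CPM, and Cd163 from 2.48 to 7.3 CPM to 0.0756 to 0.739 CPM. Stromal markers (5 of 12 at 0) went from 104 to 129 CPM to 109 to 141 CPM (exact p = 0.2, adjusted 0.218). The part of these cell types in the results was not tested.

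**Figure D1:**
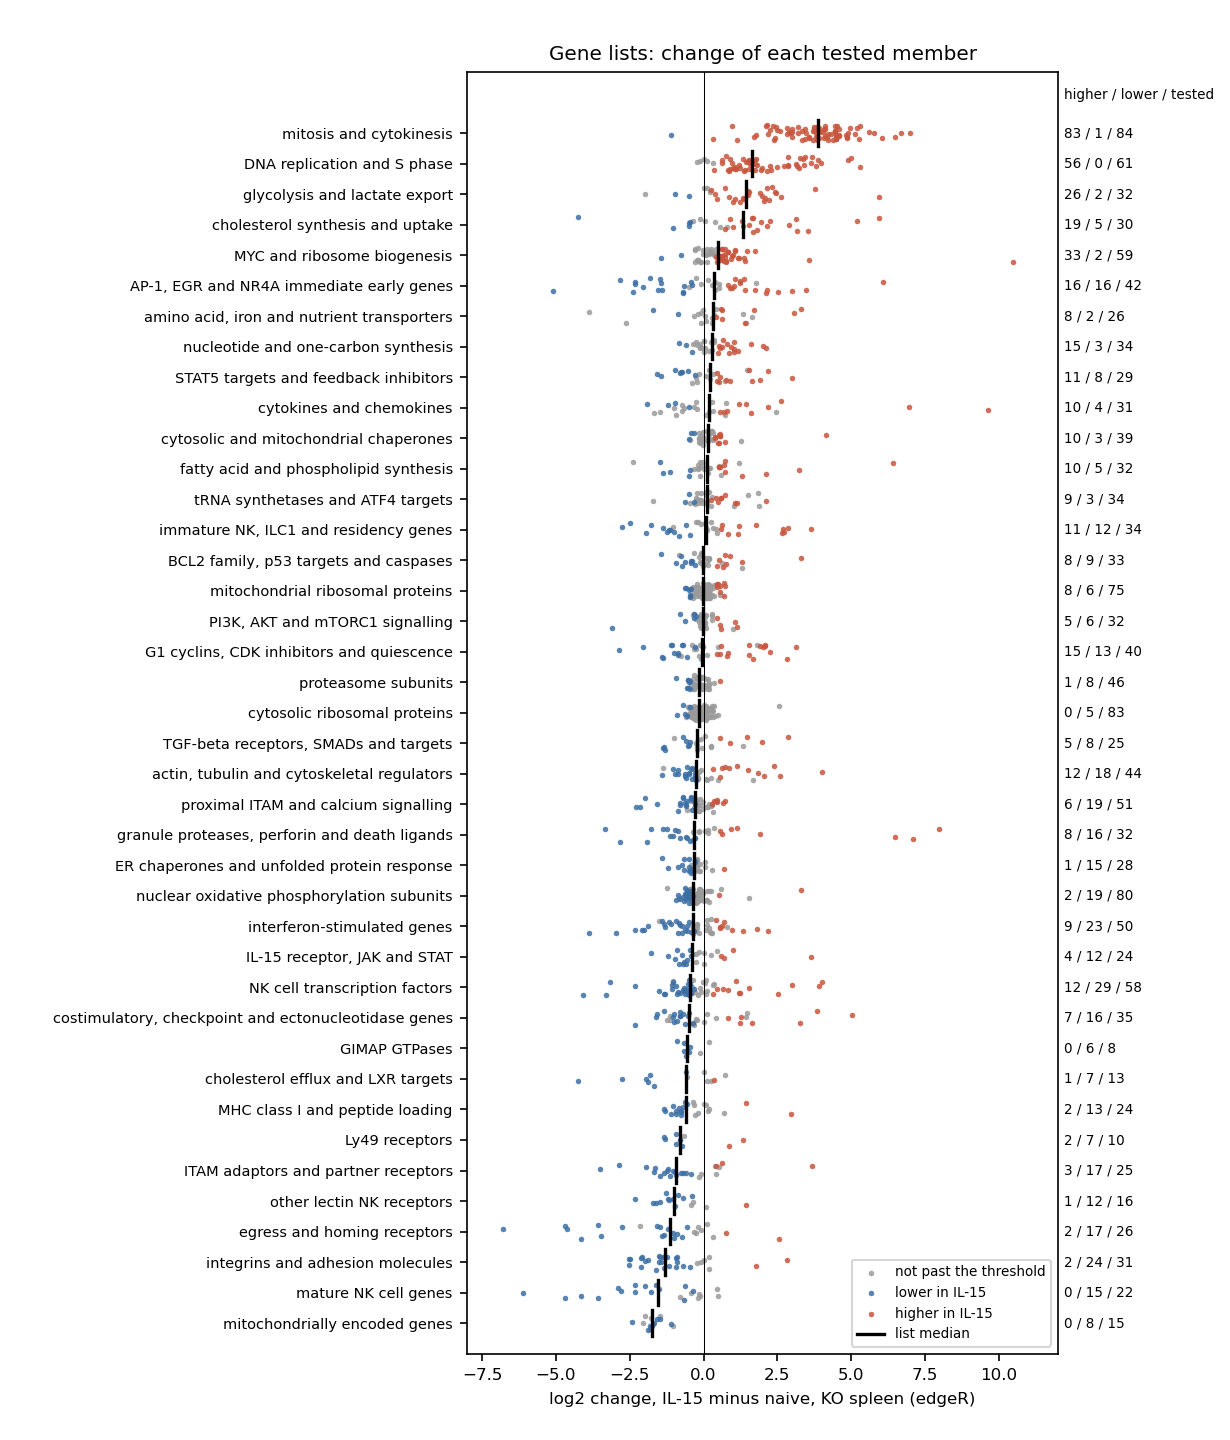
Log2 change (IL-15 minus naive, x axis) of each tested member of 40 gene lists (rows) in KO spleen NK cells; red points rose, blue points fell, grey points did not pass, and black bars are list medians. Mitosis has the highest median (3.86) and mitochondrially encoded genes the lowest (−1.76).

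The chains that read IL-15 were lower in treated cells while the feedback inhibitor Cish and the α chain Il2ra were higher. Il2rb (chr15:78480553-78495066), the β chain, stood at 3795, 3417, 3052 and 3078 CPM in the 4 naive libraries and at 2206, 2350, 2128 and 2040 CPM in the 4 IL-15 libraries. All IL-15 libraries lay below all naive ones, a fall to 0.654 times the naive level (log2 change −0.61 ± 0.11 (SE), adjusted p = 0.00019). Il2rg, the common γ chain, went from 825 ± 168 to 466 ± 30.8 CPM (mean ± SD, n = 4 and 4) without overlap (log2 change −0.83 ± 0.12 (SE), adjusted p = 2e-05). Il2ra, the high-affinity α chain of the IL-2 receptor and a STAT5 target, stood at 0, 3.01, 0.721 and 3.4 CPM in the 4 naive libraries and at 20.3, 30.7, 23.1 and 22.3 CPM in the 4 IL-15 libraries. It was at 0 in 1 naive library and above 20 CPM in every IL-15 library (log2 change 3.64 ± 0.56 (SE), adjusted p = 3.89e-05). Per kb of exon Il2ra remained far below Il2rb, at 4.22 against 509 CPM per kb with IL-15. In the list of IL-15 receptor, JAK and STAT genes 4 of 24 rose and 12 fell (median −0.39): Il4ra (0.99), Jak3 (0.68) and Il12rb1 (0.58) rose with Il2ra, and the fallers included Il7r (−1.77), Jak1 (−0.91) and Il15 itself (−0.97). Stat5a (0.02) and Stat5b (−0.14) did not pass.

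STAT5 targets moved both ways. Cish, which encodes an SH2 protein that dampens IL-15 signalling, stood at 10.9, 8.1, 7.16 and 7.3 CPM in the 4 naive libraries and at 73, 66.7, 62.8 and 61.8 CPM in the 4 IL-15 libraries, a 7.99-fold rise (log2 change 3.00 ± 0.20 (SE), adjusted p = 6.57e-10). Its groups did not overlap, with all naive libraries under 11 CPM and all IL-15 libraries above 60 CPM. Socs3, a related inhibitor that mostly follows STAT3, stood at 82.7, 55.2, 65.3 and 59.3 CPM in the 4 naive libraries and at 24.5, 21.1, 21.5 and 20.8 CPM in the 4 IL-15 libraries. The groups did not overlap and Socs3 fell (log2 change −1.58 ± 0.19 (SE), adjusted p = 2.63e-06). Among 29 targets and feedback inhibitors 11 rose and 8 fell (median 0.23), with Lif (2.18), a cytokine, Cdk6 (1.55), a G1 kinase, and the survival gene Bcl2 (0.90) among the risers. Bcl6 (−1.43), a repressor, and the survival genes Mcl1 (−0.76) and Bcl2l1 (−0.74) fell. Of 32 PI3K, AKT and mTORC1 signalling genes 5 rose and 6 fell (median −0.03): Mtor (1.05) and the translation repressor Eif4ebp1 (1.12) rose, and Rragd (−3.11), a Rag GTPase of amino acid sensing, fell. The count of risers was 3 without KO naive replicate 3 or any 1 of KO IL-15 replicates 2, 3 and 4.

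Cell division genes rose with few exceptions. Mki67, the proliferation antigen Ki-67, stood at 7.35, 5.49, 5.68 and 1.89 CPM in the 4 naive libraries and at 704, 511, 939 and 403 CPM in the 4 IL-15 libraries. The spread among treated libraries was wide and none came near the naive ones (log2 change 7.01 ± 0.58 (SE), adjusted p = 2.03e-07). Ccnb1, the mitotic cyclin B1, stood at 1.49, 2.28, 4.37 and 5.5 CPM in the 4 naive libraries and at 77.4, 91.1, 74.3 and 84.1 CPM in the 4 IL-15 libraries, without overlap (log2 change 4.52 ± 0.25 (SE), adjusted p = 5.62e-11). Of 84 mitosis and cytokinesis genes 83 rose and 1 fell (median 3.86), and the risers ran from Bub3 (0.31) to Mki67 and included the kinetochore genes Cenpe (6.04) and Cenpf (6.49) and the phosphatase Cdc25c (5.77). The member that fell was Pttg1 (securin), the inhibitor of separase, which stood at 59.6, 27.2, 44.2 and 28.1 CPM in the 4 naive libraries and at 19.4, 16, 17.7 and 20.1 CPM in the 4 IL-15 libraries. All 4 IL-15 libraries were below the lowest naive one (log2 change −1.11 ± 0.25 (SE), adjusted p = 0.00156).

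Promoters of 3 mitotic genes are shown because the list moved together and such genes are known to carry the cell cycle homology region (CHR), a site read by the DREAM and MuvB complexes, near their start. They were picked as the list's risers of smallest p that held a CHR match in the 150 bases before the start, at ranks 3, 4 and 6. Genes with smaller p-values but no match there were passed over. The 3 genes are Kif11, the mitotic kinesin Eg5, Ube2c, the ubiquitin conjugase of the anaphase promoting complex, and Top2a, the topoisomerase that untangles chromatids. Each sequence is the 150 bases before the start from RefSeq (GRCm38.p6), 5′ to 3′ on the gene's strand. Matches to the CHR letters TTTGAA or TTCGAA on either strand are in capitals (TTCAAA is TTTGAA on the other strand). The sequences lie at chr19:37376232-37376381, plus strand, chr2:164769779-164769928, plus strand and chr11:99024190-99024339, minus strand.
Kif11: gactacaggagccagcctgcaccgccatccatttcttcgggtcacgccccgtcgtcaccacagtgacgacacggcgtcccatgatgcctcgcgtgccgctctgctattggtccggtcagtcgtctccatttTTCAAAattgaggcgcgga
Ube2c: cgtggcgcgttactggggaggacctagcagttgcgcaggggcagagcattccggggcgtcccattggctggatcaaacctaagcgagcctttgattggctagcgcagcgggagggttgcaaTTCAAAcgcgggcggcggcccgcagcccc
Top2a: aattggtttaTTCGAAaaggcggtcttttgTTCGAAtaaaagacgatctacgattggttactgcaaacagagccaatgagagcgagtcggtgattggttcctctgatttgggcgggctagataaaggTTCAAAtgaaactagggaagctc

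The match began 19 bases before the start in Kif11, 29 in Ube2c, and 140, 120 and 23 in Top2a. Over the window from 250 bases before to 50 after the start, 68.9% of 74 promoters of mitotic genes (68 of 84 genes had an entry) held a CHR match, against 19.2% of all 32851 promoters in the RefSeq table and 17.3% of those of all genes that rose. CCAAT or its complement ATTGG, the letters of NF-Y, stood in 73.0% of mitotic promoters and 37.4% of all promoters. In the 150 bases before the start alone the CHR shares were 33.8% and 9.7%. The Ly49 receptor list, of which most genes fell, held a CHR match in 66.7% of 12 promoters, and 6 of the 12 held it within the 150 bases. For DNA replication genes (49 of 61 with an entry) the letters of E2F, searched as TTTGGCGC, TTTCCCGC, TTTCGCGC and TTTGCCGC on both strands, stood in 32.2% of 59 promoters against 2.26% of all, 4.04% of those of tested genes and 6.54% of those of genes that rose, while CHR stood in 16.9%. In the 150 bases before the start the E2F share was 11.9% against 1.24% of all promoters. These matches describe letters in a window and not binding.

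DNA replication and S phase genes also rose, with a lower median than mitotic genes. E2f8, an atypical repressor of the E2F family induced in S phase, stood at 1.39, 1.44, 1.4 and 1.47 CPM in the 4 naive libraries and at 57.2, 61.8, 61 and 45.6 CPM in the 4 IL-15 libraries. The naive libraries were almost equal, and the IL-15 libraries were 39.4 times higher on the fitted scale (log2 change 5.30 ± 0.20 (SE), adjusted p = 5.15e-13). Of 61 genes in the list 56 rose and 0 fell (median 1.65), with the origin licensing genes Orc1 (4.88) and Cdc6 (3.67), the ribonucleotide reductase gene Rrm2 (3.64) and the polymerase clamp Pcna (1.00). Those that did not pass were Rpa1 (−0.00), Rpa2 (0.10) and Rpa3 (0.31), the single-strand binding proteins, with Rfc2 and Gins4.

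G1 regulators went both ways. Ccnd1, cyclin D1, stood at 10.8, 3.45, 8.38 and 1.47 CPM in the 4 naive libraries and at 1.85, 0.678, 0.44 and 0.326 CPM in the 4 IL-15 libraries. It fell (log2 change −2.87 ± 0.61 (SE), adjusted p = 0.000871), although the highest IL-15 library exceeded the lowest naive one. Cdkn1a, the CDK inhibitor p21, stood at 17.3, 4.37, 7.25 and 4.53 CPM in the 4 naive libraries and at 34.3, 30, 31.5 and 39.6 CPM in the 4 IL-15 libraries, with KO naive replicate 1 the highest naive library and no overlap (log2 change 2.07 ± 0.34 (SE), adjusted p = 6.47e-05). In the list of G1 cyclins, CDK inhibitors and quiescence genes 15 of 40 rose and 13 fell (median −0.06). The E cyclins Ccne1 (1.91) and Ccne2 (2.83), Cdk2 (1.69) and Skp2 (2.08), which degrades CDK inhibitors, rose. The inhibitor Cdkn1c (−2.06), the antiproliferative genes Tob1 (−1.39) and Btg1 (−0.85), and Foxo1 (−1.08), a factor of quiescence, fell.

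Myc rose, as did 33 of 59 genes of the MYC and ribosome biogenesis list, with 24 not called. Myc (chr15:61985391-61990374) stood at 50, 54.5, 49.2 and 49.3 CPM in the 4 naive libraries and at 186, 186, 150 and 159 CPM in the 4 IL-15 libraries, a 3.35-fold rise without overlap (log2 change 1.75 ± 0.12 (SE), adjusted p = 1.43e-09). Mycn, the N-MYC gene, had no count in the 4 naive libraries and 830 counts in the IL-15 libraries, at 7.18, 6.53, 6.98 and 6.2 CPM. Against a floor of 3 counts over the naive group this is at least 181-fold higher. The list's median was 0.50 and 2 of its genes fell. The risers included Srm (1.47) and Odc1 (1.08) of polyamine synthesis and the nucleolar genes Gnl3 (1.37), Ncl (0.83) and Npm1 (0.62). Mxd1 (−1.45), a competitor of MYC for MAX, fell, while another, Mxd3 (3.58), rose. In contrast to the biogenesis genes, 0 of 83 cytosolic ribosomal protein genes rose and 5 fell (median −0.15). That count of fallers was 10 without KO naive replicate 1, 11 without KO IL-15 replicate 4 and 3 without KO IL-15 replicate 2 or 3, and 3 of the genes rose when DESeq2's size factors were used in edgeR.

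Most genes of glycolysis rose, while the glucose transporter genes Slc2a1 and Slc2a3 did not pass. Ldha, lactate dehydrogenase A, stood at 498, 396, 483 and 406 CPM in the 4 naive libraries and at 1200, 1150, 1006 and 1271 CPM in the 4 IL-15 libraries, and the groups did not overlap (log2 change 1.38 ± 0.12 (SE), adjusted p = 4.29e-08). Slc16a3, the lactate exporter MCT4, stood at 4.87, 9.46, 7.03 and 7.81 CPM in the 4 naive libraries and at 108, 97.2, 97.5 and 108 CPM in the 4 IL-15 libraries, a 13.8-fold rise (log2 change 3.79 ± 0.16 (SE), adjusted p = 1.48e-12). Gapdh, often taken as an unchanging reference, went from 366 ± 87.9 to 1441 ± 71.9 CPM (mean ± SD, n = 4 and 4), with KO naive replicate 1 the lowest library at 237 CPM (log2 change 1.97 ± 0.14 (SE), adjusted p = 1.8e-09). Slc2a1, the glucose transporter GLUT1, stood at 127, 143, 130 and 105 CPM in the 4 naive libraries and at 139, 128, 129 and 151 CPM in the 4 IL-15 libraries. The groups overlapped and it did not pass (log2 change 0.11 ± 0.11 (SE), adjusted p = 0.433), nor did Slc2a3 (GLUT3) at 0.03. Of 32 genes 26 rose and 2 fell (median 1.43), with Hk2 (2.61), Pgk1 (2.43), Aldoa (2.07) and Pkm (1.52) of the pathway itself. The HIF target genes Bnip3 (2.44), Egln3 (2.31) and Pdk1 (2.14), which holds pyruvate back from mitochondria, rose too. The fallers were Bpgm (−0.98) and Pdk2 (−0.50), 1 of which was left without KO naive replicate 4 or KO IL-15 replicate 4.

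Most sterol synthesis genes rose, while cholesterol efflux genes that passed mostly fell. Hmgcs1, the synthase that starts the mevalonate pathway, stood at 41.5, 48.7, 54.3 and 62.6 CPM in the 4 naive libraries and at 216, 248, 220 and 244 CPM in the 4 IL-15 libraries, without overlap (log2 change 2.16 ± 0.12 (SE), adjusted p = 6.11e-11). Fdps, which makes farnesyl diphosphate, rose (2.90), as did Cyp51 (3.17), a demethylase of the sterol branch, and Idi1 (3.14), an isomerase of the isoprene units. Of 30 genes 19 rose and 5 fell (median 1.32), including the factor Srebf2 (1.63) and its retention protein Insig1 (2.25). The fallers included the phosphatidate phosphatase Lpin1 (−1.05), the isomerase Ebp (−0.48) and the lysosomal exporters Npc1 (−0.45) and Npc2 (−0.48). They numbered 3 without KO IL-15 replicate 1 or replicate 3.

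The efflux pump Abca1, a target of the oxysterol receptor LXR, stood at 102, 146, 110 and 126 CPM in the 4 naive libraries and at 3.74, 8.1, 7.48 and 5.94 CPM in the 4 IL-15 libraries. All IL-15 libraries were under 10 CPM and all naive ones above 100 CPM (log2 change −4.26 ± 0.31 (SE), adjusted p = 2.27e-09). Of 13 efflux and LXR target genes 1 rose and 7 fell (median −0.58), with Abcg1 (−2.76), another sterol pump, Apoe (−1.94) and the ubiquitin ligase Mylip (−1.67) among the fallers. The riser, Srebf1 (0.34), did not pass without KO naive replicate 4 or KO IL-15 replicate 1.

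**Figure D2:**
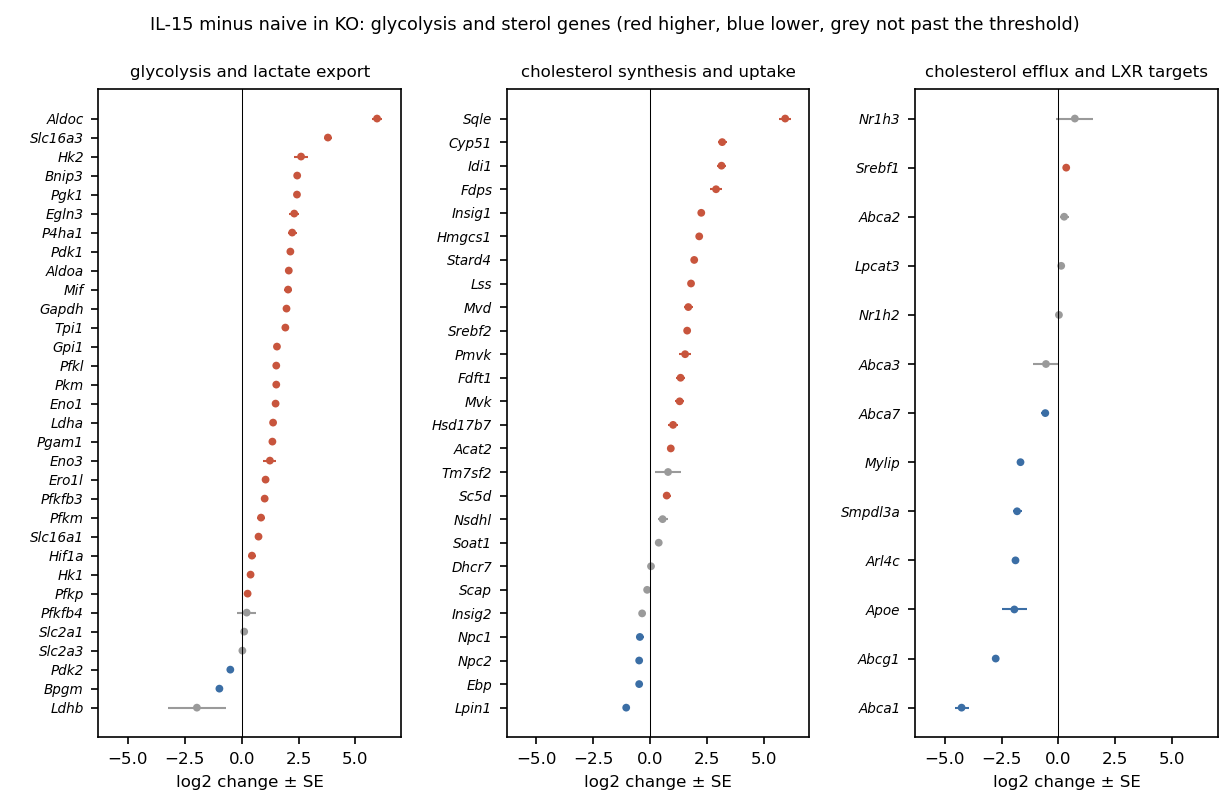
Log2 change ± SE (x axis) of the genes of the glycolysis, cholesterol synthesis (in part) and cholesterol efflux lists (rows) in KO, IL-15 minus naive. Glycolysis genes (26 of 32 rose) and synthesis genes lie mostly right of 0 and efflux genes mostly left of it (7 of 13 fell).

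The promoter of Hmgcs1 is shown because, of the sterol genes with an entry, it alone held the letters of the sterol regulatory element, TCACNCCAC on either strand, in this window. It is the 150 bases before the start (RefSeq, GRCm38.p6, chr13:119690201-119690350, plus strand), with the match, which began 137 bases before the start, in capitals.
Hmgcs1: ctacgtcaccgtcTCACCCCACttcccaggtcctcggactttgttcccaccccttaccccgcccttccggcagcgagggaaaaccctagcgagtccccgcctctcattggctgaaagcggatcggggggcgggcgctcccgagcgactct

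Only 21 of 30 genes of the list had an entry, so its share of promoters with the motif is void as a check; 1.24% of all promoters of the table held it in the window from 250 bases before to 50 after the start. Sqle had no entry.

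In other lipid and biosynthetic lists a minority of genes passed. Fads2, the Δ6 desaturase of polyunsaturated fatty acids, stood at 0, 0.0802, 0.225 and 0 CPM in the 4 naive libraries and at 8.24, 7.89, 7.51 and 7.24 CPM in the 4 IL-15 libraries, at or near 0 in all naive libraries and above 7 CPM in all treated ones (log2 change 6.42 ± 0.64 (SE), adjusted p = 1.67e-07). Fads1 (3.22) and the fatty acid chaperone Fabp5 (2.13) rose with it, and 10 of 32 genes of fatty acid and phospholipid synthesis rose and 5 fell (median 0.11), with Cpt1a (−1.13), the gate of fatty acid oxidation, among the fallers. With the length and GC correction these counts were 6 and 9. Of 34 nucleotide and one-carbon genes 15 rose and 3 fell (median 0.30), with Shmt1 (2.10) and Mthfd2 (2.01) of the folate cycle leading. Tfrc, the transferrin receptor for iron uptake, stood at 13.9, 17.2, 8.02 and 9.27 CPM in the 4 naive libraries and at 99.2, 138, 117 and 124 CPM in the 4 IL-15 libraries, without overlap (log2 change 3.31 ± 0.27 (SE), adjusted p = 1.54e-08). Slc7a5, a chain of the large amino acid transporter, rose (1.71) while its partner Slc3a2 fell (−0.85); 8 of 26 transporters rose and 2 fell (median 0.32). Of 34 tRNA synthetases and ATF4 targets 9 rose and 3 fell (median 0.10), 5 of them without KO naive replicate 4.

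Part of the mitochondrial transcripts fell, with a large spread between naive libraries. mt-Rnr2, the 16S ribosomal RNA of mitochondria, stood at 2108, 5895, 3689 and 6248 CPM in the 4 naive libraries and at 477, 844, 937 and 1077 CPM in the 4 IL-15 libraries, without overlap (log2 change −2.43 ± 0.29 (SE), adjusted p = 1.81e-06). mt-Co1, a subunit of cytochrome oxidase, stood at 3578, 29647, 12871 and 27561 CPM in the 4 naive libraries and at 2450, 7312, 8091 and 6984 CPM in the 4 IL-15 libraries. The groups overlapped, KO naive replicate 1 being lowest among naive libraries. The call (log2 change −1.57 ± 0.48 (SE), adjusted p = 0.0163) was lost without KO naive replicate 2 (adjusted p = 0.0524) or 4 (0.0505), in a fit of the 8 KO libraries alone (0.114) and with no filter on low counts (0.0531). Of 15 mitochondrially encoded genes 8 fell and 0 rose (median −1.76), and mt-Rnr2 was the only 1 whose groups did not overlap. The count of fallers was 14 without KO naive replicate 1, 3 without KO naive replicate 2 or 4 and 5 without KO IL-15 replicate 1. The mitochondrial share of counts was 1.18, 9.28, 4.19 and 8.74% in naive and 0.809, 2.5, 2.82 and 2.44% in IL-15 libraries (exact permutation p = 0.114, two-sided, n = 4 and 4; the smallest possible is 0.0286).

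Among nuclear genes of oxidative phosphorylation 19 of 80 fell and 2 rose (median −0.35), with Ndufa4 (−0.93), Atp5h (−0.88), Uqcrh (−0.63) and Sdha (−0.51) from different complexes. This count was 9 without KO naive replicate 3 or KO IL-15 replicate 2 and 7 without KO IL-15 replicate 3. Cox7a1 (3.3), an isoform of contractile tissue, was 1 of the risers, which numbered 1 without KO naive replicate 2 or KO IL-15 replicate 1 or 3. Of 75 mitochondrial ribosomal protein genes 8 rose and 6 fell (median −0.02), 5 and 1 without KO naive replicate 1. The risers were 5, 5 and 4 without KO IL-15 replicates 2, 3 and 4, and the fallers 3, 2 and 2 without KO IL-15 replicates 1, 2 and 3.

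More genes of the endoplasmic reticulum fell than rose. Of 28 ER chaperones and unfolded protein response genes 15 fell and 1 rose (median −0.32), with the chaperone Calr (−0.67) and the sensor Ern1 (−0.66) lower. The riser, joined by another without KO IL-15 replicate 1, was Xbp1, the factor that Ern1 splices, which stood at 80.4, 90.9, 74.2 and 80.9 CPM in the 4 naive libraries and at 136, 143, 120 and 128 CPM in the 4 IL-15 libraries without overlap (log2 change 0.69 ± 0.10 (SE), adjusted p = 1.21e-05). Of 39 cytosolic and mitochondrial chaperones 10 rose and 3 fell (median 0.15); the mitochondrial chaperones Hspd1 (0.51) and Hspa9 (0.49) rose and the cochaperone Dnajb1 (−0.51) fell. None fell without KO naive replicate 3 or KO IL-15 replicate 3, and 1 without KO naive replicate 4 or KO IL-15 replicate 1. Of 46 proteasome genes 1 rose and 8 fell (median −0.14), with the immunoproteasome subunit Psmb10 (−0.95) the largest fall; the 1 rise was lost without KO naive replicate 3 or 4 or KO IL-15 replicate 1, 2 or 4.

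Among granule genes granzymes A and M and perforin fell while granzymes B, D and E rose. Gzma, granzyme A, stood at 6127, 6198, 7138 and 5134 CPM in the 4 naive libraries and at 1840, 1637, 1561 and 2197 CPM in the 4 IL-15 libraries, a 3.4-fold fall (log2 change −1.77 ± 0.17 (SE), adjusted p = 7.87e-08). Gzmb, granzyme B, stood at 361, 593, 473 and 448 CPM in the 4 naive libraries and at 1433, 2015, 1696 and 1890 CPM in the 4 IL-15 libraries, a 3.75-fold rise without overlap (log2 change 1.91 ± 0.17 (SE), adjusted p = 4.03e-08). Per kb of exon granzyme A stood above granzyme B in naive cells (6113 against 326 CPM per kb) and also with IL-15 (1798 against 1224). Gzmm, granzyme M, stood at 63.3, 42.2, 48 and 36.3 CPM in the 4 naive libraries and at 5.86, 4.13, 3.52 and 5.09 CPM in the 4 IL-15 libraries, a 10.2-fold fall (log2 change −3.35 ± 0.23 (SE), adjusted p = 1.14e-09). Gzmd had no count in the 4 naive libraries and 147 counts with IL-15, at least 32.1-fold higher against the same floor, and Gzme rose with it (7.11); granzymes C to G resemble each other, so reads may be split among them and the separate values are uncertain.

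Prf1, perforin, stood at 1650, 1896, 1683 and 1498 CPM in the 4 naive libraries and at 822, 950, 825 and 826 CPM in the 4 IL-15 libraries, a 1.97-fold fall without overlap (log2 change −0.97 ± 0.12 (SE), adjusted p = 3.3e-06). Of 32 granule, perforin and death ligand genes 8 rose and 16 fell (median −0.32). The fallers included Nkg7 (−1.90), a granule membrane protein, Ctsc (−1.05), which activates granzymes, and Fasl (−0.46). Tnfsf10 (0.62), which encodes TRAIL, and Lyst (0.92), a regulator of granule size, rose.

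Cytokine genes also diverged. Ccl1, a chemokine for CCR8, had 1 count in the naive libraries and 1689 with IL-15, at 13.5, 15.7, 11.8 and 13.6 CPM. This is a ratio of 1107 with an exact 95% counting interval of 198 to 43737, which covers counting error only. Ccl5, the chemokine RANTES, stood at 1875, 3202, 3671 and 3812 CPM in the 4 naive libraries and at 845, 764, 819 and 901 CPM in the 4 IL-15 libraries, with KO naive replicate 1 lowest among naive libraries and no overlap (log2 change −1.92 ± 0.18 (SE), adjusted p = 8.27e-08). Tnf stood at 1.09, 4.01, 3.24 and 2.81 CPM in the 4 naive libraries and at 14.4, 20, 21.2 and 16.5 CPM in the 4 IL-15 libraries, a rise from a low level (log2 change 2.64 ± 0.43 (SE), adjusted p = 6.36e-05). Ifng, interferon γ, stood at 80, 101, 90.7 and 76.1 CPM in the 4 naive libraries and at 53.9, 62.3, 51.6 and 76 CPM in the 4 IL-15 libraries. The groups did not overlap but nearly touched, at 76.1 and 76.0 CPM, and it fell to 0.701 times the naive level (log2 change −0.51 ± 0.15 (SE), adjusted p = 0.0118). Of 31 cytokine and chemokine genes 10 rose and 4 fell (median 0.18), with Xcl1 (1.21), Ccl3 (0.79) and Tnfsf9 (1.61) among the risers.

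**Figure D3:**
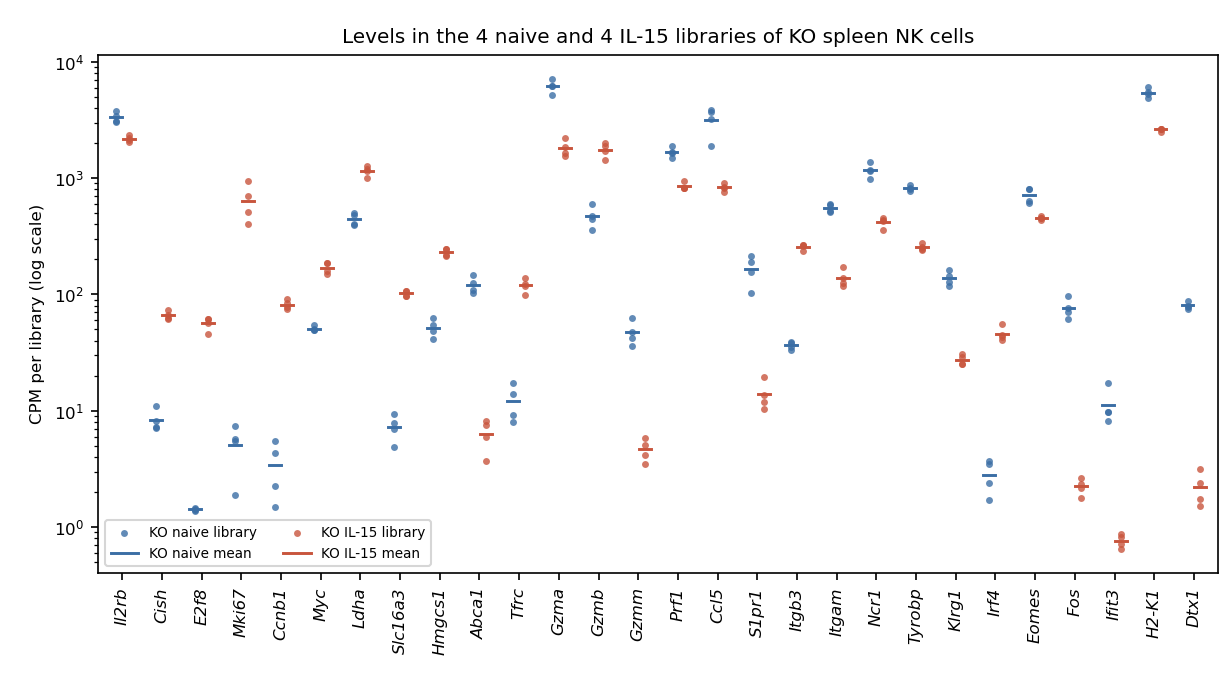
CPM (log axis) of 28 genes (x axis) in each of the 4 naive (blue) and 4 IL-15 (red) KO libraries, with bars at the group means. In this selection of called genes the 2 colours do not overlap for any gene, and the gap is wide for genes such as Mki67, Irf4 and Dtx1.

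Receptors that guide NK cells through blood and lymphoid tissue were lower. S1pr1, the sphingosine phosphate receptor for exit from lymphoid tissue, stood at 102, 212, 155 and 189 CPM in the 4 naive libraries and at 10.4, 11.8, 13.7 and 19.6 CPM in the 4 IL-15 libraries, an 11.9-fold fall (log2 change −3.57 ± 0.21 (SE), adjusted p = 1.26e-10). Cx3cr1, the fractalkine receptor of mature NK cells, stood at 32.8, 65.1, 69.2 and 64.2 CPM in the 4 naive libraries and at 1.97, 2.25, 2.96 and 1.7 CPM in the 4 IL-15 libraries, again with KO naive replicate 1 lowest among naive libraries (log2 change −4.70 ± 0.37 (SE), adjusted p = 8.72e-09). P2rx7, an ATP-gated channel, had 205 counts in the naive libraries (0.596, 1.04, 2.12 and 5.29 CPM) and 2 with IL-15. The ratio was 156, with an exact 95% counting interval of 42.8 to 1300.

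Of 26 egress and homing genes 17 fell and 2 rose (median −1.13). Cxcr4 (−1.33), which holds cells in bone marrow, Cxcr3 (−1.21), which draws them to inflamed tissue, and the selectin ligand Selplg (−1.0) fell. The risers were the lipid receptor genes Gpr34 (2.56) and Gpr183 (0.77), the latter a receptor for oxysterols; 1 rose without KO naive replicate 1 or 3 or KO IL-15 replicate 2 or 4. Cd69, which holds back exit from tissue, did not pass (−0.10).

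Most adhesion genes fell, and 2 rose. Itgam, the integrin CD11b that marks mature NK cells, stood at 516, 601, 507 and 584 CPM in the 4 naive libraries and at 126, 138, 171 and 117 CPM in the 4 IL-15 libraries, a 4-fold fall (log2 change −2.0 ± 0.16 (SE), adjusted p = 9.04e-09). Itgb3, the integrin β3 chain, stood at 33.2, 38.4, 35.3 and 39.2 CPM in the 4 naive libraries and at 236, 263, 267 and 265 CPM in the 4 IL-15 libraries, a 7.05-fold rise (log2 change 2.82 ± 0.11 (SE), adjusted p = 5.26e-13). Itga1, the α1 chain CD49a of tissue-resident NK cells, stood at 3.28, 4.93, 2.93 and 3.86 CPM in the 4 naive libraries and at 14, 10.9, 13 and 13.3 CPM in the 4 IL-15 libraries, without overlap (log2 change 1.76 ± 0.30 (SE), adjusted p = 0.000124). Of 31 integrin and adhesion genes 24 fell and 2 rose (median −1.31), the fallers including Itga4 (−2.12) and Itgb7 (−2.11), Itga2 (−2.07), the marker CD49b, and Itgal (−1.18) and Itgb2 (−1.52), the chains of LFA-1. Itgb3 is also a platelet gene. Summed platelet and megakaryocyte markers went from 38.4 to 60.4 CPM in naive libraries to 0.986 to 2.12 CPM with IL-15 (exact permutation p = 0.0286, adjusted 0.0429), and their part in these changes was not tested.

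Adaptors and receptors that FcRγ works beside were mostly lower, while CD16 was higher. Tyrobp (DAP12) stood at 872, 804, 824 and 775 CPM in the 4 naive libraries and at 254, 245, 240 and 279 CPM in the 4 IL-15 libraries, a 3.22-fold fall without overlap (log2 change −1.69 ± 0.14 (SE), adjusted p = 1.37e-08). Cd247 (CD3ζ), the other partner of NKp46, stood at 129, 233, 192 and 194 CPM in the 4 naive libraries and at 84.9, 98, 99.4 and 97.7 CPM in the 4 IL-15 libraries, without overlap (log2 change −0.98 ± 0.14 (SE), adjusted p = 1.37e-05). Ncr1, which encodes NKp46, stood at 975, 1374, 1150 and 1177 CPM in the 4 naive libraries and at 361, 436, 453 and 427 CPM in the 4 IL-15 libraries, a 2.79-fold fall (log2 change −1.48 ± 0.11 (SE), adjusted p = 5.19e-09). Fcgr3, the mouse CD16 chain, encoded on chromosome 1 near Fcer1g (chr1:171051174-171064935), stood at 31.8, 85, 78.4 and 92.6 CPM in the 4 naive libraries and at 90.3, 115, 114 and 122 CPM in the 4 IL-15 libraries. KO naive replicate 1 was lowest and the groups overlapped. Fcgr3 rose (log2 change 0.61 ± 0.21 (SE), adjusted p = 0.0269), but its adjusted p was 0.0566, 0.0575 and 0.067 without KO IL-15 replicates 2, 3 and 4.

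Of 25 ITAM adaptors and partner receptors 17 fell and 3 rose (median −0.95); 1 rose without KO IL-15 replicate 2. Hcst (−1.65), the adaptor DAP10, Klrk1 (−1.03), its receptor NKG2D, and the SLAM family genes Slamf6 (−1.23) and Cd244 (−0.60) fell. Gp49a, an immunoglobulin-like receptor whose reads can be shared with its near copy Lilrb4, stood at 0.993, 1.36, 2.88 and 2.43 CPM in the 4 naive libraries and at 22.8, 19.3, 37.5 and 21.5 CPM in the 4 IL-15 libraries, without overlap (log2 change 3.67 ± 0.52 (SE), adjusted p = 1.48e-05). Cd3e, a T cell receptor chain also read at low level in NK cells, stood at 2.58, 4.37, 8.38 and 9.48 CPM in the 4 naive libraries and at 0.907, 0.493, 0.44 and 0.326 CPM in the 4 IL-15 libraries. It fell (log2 change −3.52 ± 0.48 (SE), adjusted p = 1.01e-05) together with Cd3d (−2.85) and Cd3g (−1.96). Summed T cell markers, which include them, ranged from 211 to 269 CPM in naive and from 181 to 276 CPM in IL-15 libraries (exact permutation p = 0.543). Most of that sum was Trbc1 and Trbc2, so it says little about the Cd3 genes. Trbc1 went from 91.8 to 120 CPM in naive to 112 to 201 CPM in IL-15 libraries. Trbc2 went from 54.3 to 70 CPM to 42.6 to 54.2 CPM. Cd4, Cd8a and Cd8b1 were under 1 CPM in every library.

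Among genes downstream of the ITAM, of 51 proximal and calcium signalling genes 19 fell and 6 rose (median −0.28). The kinases Syk (−0.58), Lck (−0.79) and Fyn (−0.79), the scaffold Lat (−1.58) and the calcium channel genes Orai1 (−0.71) and Stim1 (−0.87) fell. The scaffold Lcp2 (0.34), which encodes SLP-76, the ligase Cblb (0.71), a brake on activation, and the NF-κB adaptor Malt1 (0.46) rose.

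Most lectin-like receptors fell. Klra8, the activating Ly49H receptor for a cytomegalovirus protein, stood at 469, 744, 747 and 664 CPM in the 4 naive libraries and at 285, 328, 367 and 398 CPM in the 4 IL-15 libraries, without overlap (log2 change −0.93 ± 0.15 (SE), adjusted p = 7.35e-05). Of 10 Ly49 genes 7 fell and 2 rose (median −0.80), Klra5 (0.85) and Klra10 (1.33) being the risers, 1 without KO naive replicate 1, 2 or 4 or KO IL-15 replicate 3; these genes are near copies, so their separate values are uncertain. Klrg1, an inhibitory receptor of mature NK cells, stood at 118, 143, 161 and 127 CPM in the 4 naive libraries and at 25.1, 25.2, 29.2 and 30.5 CPM in the 4 IL-15 libraries, a 4.99-fold fall (log2 change −2.32 ± 0.15 (SE), adjusted p = 3.96e-10). Of 16 other lectin receptors 12 fell and 1 rose (median −1.0), with Klrc1 (−1.62), which encodes NKG2A, and its partner Klrd1 (−0.71) lower, and Clec2d (1.44), a ligand of Klrb1 family receptors, higher. The change of Clec2d differed from that in WT (KO minus WT −1.34 ± 0.25 (SE), adjusted p = 0.0109). The sum of 12 NK cell markers was 19279 to 22285 CPM in naive and 8489 to 9258 CPM in IL-15 libraries (exact permutation p = 0.0286, adjusted over 12 marker lists 0.0429), and its part in these falls was not tested.

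Most genes of mature NK cells fell, while those of immature, ILC1 and resident cells went both ways. Of 22 mature NK cell genes 15 fell and 0 rose (median −1.55); besides those above, Ly6c2 (−3.57) and Zeb2 (−1.50), a factor of terminal maturation, fell. Of 34 immature NK, ILC1 and residency genes 11 rose and 12 fell (median 0.07). Inpp4b (2.67), Ahr (1.18) and Kit (0.60) rose, and Sox4 (−2.76), Il7r, Cd27 (−0.99) and Itgae (−2.48) fell.

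Transcription factors leaned down. Eomes, which specifies NK cells, stood at 629, 806, 611 and 801 CPM in the 4 naive libraries and at 451, 476, 454 and 440 CPM in the 4 IL-15 libraries, a modest fall without overlap (log2 change −0.64 ± 0.12 (SE), adjusted p = 0.000287). Irf4, a factor of activated lymphocytes, stood at 2.38, 1.72, 3.74 and 3.48 CPM in the 4 naive libraries and at 40.8, 55.4, 42.7 and 44.7 CPM in the 4 IL-15 libraries, a 16-fold rise (log2 change 4.00 ± 0.26 (SE), adjusted p = 3.27e-10). Id3, an inhibitor of E proteins, stood at 6.85, 0.762, 4.78 and 5.5 CPM in the 4 naive libraries and at 0.189, 0.246, 0.352 and 0.228 CPM in the 4 IL-15 libraries, a fall to near 0 (log2 change −4.10 ± 0.62 (SE), adjusted p = 2.76e-05). Of 58 factors 12 rose and 29 fell (median −0.45), with the zinc finger genes Zbtb32 (3.92) and Egr2 (2.51) higher and Klf3 (−3.16), Batf3 (−3.31), Gata3 (−0.66) and Ets1 (−0.89) lower. Irf4 and Xbp1 are plasma cell genes as well. Summed plasma cell markers, which include both genes, went from 150 to 198 CPM in naive to 229 to 259 CPM in IL-15 libraries (exact permutation p = 0.0286, adjusted 0.0429). Prdm1, the most abundant other gene of that sum, went from 58.1 to 109 CPM to 57.3 to 65 CPM. The defining marker Tnfrsf17 was at 0 in all 8 libraries, and the part of plasma cells in these changes was not tested.

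Several checkpoint receptors rose, Havcr2 and Ctla4 from levels near 0. Havcr2, which encodes TIM-3, stood at 0, 0.281, 0.0901 and 0.252 CPM in the 4 naive libraries and at 4.19, 7.08, 4.72 and 7.5 CPM in the 4 IL-15 libraries. Every IL-15 library lay above every naive one (log2 change 5.02 ± 0.75 (SE), adjusted p = 2.6e-05). Ctla4 stood at 0.695, 0, 0.135 and 0 CPM in the 4 naive libraries and at 1.93, 1.45, 2.67 and 3.42 CPM in the 4 IL-15 libraries, also without overlap (log2 change 3.85 ± 0.95 (SE), adjusted p = 0.00394). Of 35 costimulatory, checkpoint and ectonucleotidase genes 7 rose and 16 fell (median −0.49), with Lag3 (1.28) and Tigit (1.23) higher and Cd86 (−1.62), Cd28 (−0.99) and Tnfrsf1b (−0.79) lower. In the list of BCL2 family, p53 target and caspase genes 8 of 33 rose and 9 fell (median −0.02): Bcl2l11 (0.66), which encodes the killer BIM, rose, and Pmaip1 (−1.43), which encodes NOXA, fell.

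Most interferon-stimulated genes that passed were lower. Ifit3, an antiviral gene of the type I interferon response, stood at 8.25, 17.4, 9.69 and 9.74 CPM in the 4 naive libraries and at 0.869, 0.647, 0.821 and 0.718 CPM in the 4 IL-15 libraries. KO naive replicate 2 was the highest library and the treated libraries were all under 1 CPM (log2 change −3.88 ± 0.40 (SE), adjusted p = 2.9e-07). Isg20, an exonuclease of the same response, stood at 0.497, 0.922, 0.36 and 1.17 CPM in the 4 naive libraries and at 3.85, 2.71, 3.99 and 3.2 CPM in the 4 IL-15 libraries, the reverse order without overlap (log2 change 2.18 ± 0.41 (SE), adjusted p = 0.00026). Of 50 interferon-stimulated genes 23 fell and 9 rose (median −0.36); Rsad2 (−2.33), Isg15 (−1.35) and Irf7 (−0.84) fell, and the risers included the guanylate binding genes Gbp4 (1.81) and Gbp6 (1.32) and Eif2ak2 (0.97), the kinase PKR.

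Many MHC class I genes fell while their transactivator was higher. H2-K1 stood at 5435, 6044, 5294 and 4915 CPM in the 4 naive libraries and at 2656, 2496, 2653 and 2659 CPM in the 4 IL-15 libraries, a 2.07-fold fall without overlap (log2 change −1.05 ± 0.11 (SE), adjusted p = 3.05e-07). Nlrc5, the class I transactivator, stood at 64.8, 47.6, 54.3 and 62.7 CPM in the 4 naive libraries and at 181, 136, 188 and 112 CPM in the 4 IL-15 libraries, above all naive libraries in every treated one (log2 change 1.43 ± 0.21 (SE), adjusted p = 2.28e-05). Of 24 class I and peptide loading genes 13 fell and 2 rose (median −0.60), with B2m (−0.78), the light chain, and Tapbp (−0.76), the tapasin gene, lower, and Ulbp1 (2.95), an NKG2D ligand, higher. Class I genes resemble each other, so single values can share reads. Of 8 GIMAP GTPase genes, which support lymphocyte survival, 6 fell and 0 rose (median −0.55).

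Immediate early genes went both ways. Fos stood at 71.1, 61.8, 77.1 and 96.6 CPM in the 4 naive libraries and at 2.34, 2.16, 1.79 and 2.67 CPM in the 4 IL-15 libraries, a 34.2-fold fall (log2 change −5.10 ± 0.26 (SE), adjusted p = 1.86e-11). Fosl1, the related FRA-1 gene, had 1 count in naive libraries and 141 with IL-15 (1.06, 1.42, 0.675 and 1.44 CPM), a ratio of 92.4 with an exact 95% counting interval of 16.3 to 3675. Of 42 AP-1, EGR and NR4A genes 16 rose and 16 fell (median 0.34). Fosb (−2.82), Junb (−2.39), Dusp1 (−2.05), a MAP kinase phosphatase, and Zfp36 (−2.31), which degrades mRNA, fell, whereas Egr1 (1.4), Egr3 (3.00), Nr4a2 (1.36), Nr4a3 (1.25) and Rel (1.05) rose. Of 25 TGF-β genes 5 rose and 8 fell (median −0.22), with Smad3 (−1.30) and Smad7 (−1.35) lower and Pmepa1 (2.86) higher. Of 44 cytoskeletal genes 12 rose and 18 fell (median −0.24), with the tubulin genes Tubb6 (4.01) and Tuba1b (2.06), the microtubule regulator Stmn1 (2.37) and the myosin Myh9 (1.51) among the risers and the tubulin gene Tuba1a (−0.42), the actin crosslinker Flna (−1.41) and the GTPases Rhoa (−0.86) and Cdc42 (−0.88) among the fallers.

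The change varied with gene length. Of genes with 10 kb or more of exon 35.3% rose and 13.0% fell (median 0.24), and of those under 1.5 kb 10.6% rose and 15.4% fell (median −0.14). In WT the medians of the same bins were 0.55 and −0.34. The 20 most abundant genes held 9.55 to 14.9% of counts in naive and 7.77 to 8.54% in IL-15 KO libraries. Among 337 genes labelled as long intergenic RNA in the deposited data 66 rose and 18 fell (median 0.45). That label also covers Nlrc5, given above as the class I transactivator, so the class is not purely noncoding. With the correction for length and GC given above, the counts of fallers were 12 for PI3K and mTORC1 genes, 16 for the proteasome, 23 for cytosolic ribosomal proteins, 32 for oxidative phosphorylation and 30 for proximal ITAM signalling. They were 6 for MYC and ribosome biogenesis, 5 each for nutrient transporters, nucleotide synthesis and chaperones, 6 for tRNA synthetases and ATF4 targets, 10 for mitochondrial ribosomal proteins and 1 for DNA replication. The counts of risers were 2 for the proteasome, 3 for cytosolic ribosomal proteins and 0 for cholesterol efflux, and of all other counts of at least 1 riser or faller only those of fatty acid synthesis moved by over 1.5 times. The part of length in single results was not tested otherwise.

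**Figure D4:**
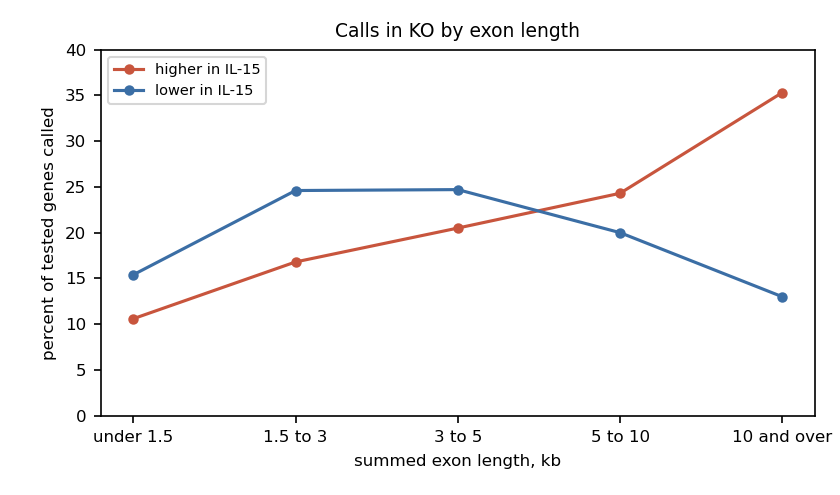
Percent of tested genes that rose (red) or fell (blue) in KO with IL-15 (y axis), by summed exon length in kb (x axis). The share that rose goes from 10.6% under 1.5 kb to 35.3% at 10 kb and over.

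The change with IL-15 differed between KO and WT for few genes. By a test of the difference itself 63 genes had a more positive change in KO (0.472%) and 143 a more negative one (1.07%), and 2194 had an unadjusted p under 0.05. Fcgr2b, the inhibitory Fc receptor, encoded near Fcer1g (chr1:170960558-170976547), stood at 6.06, 5.01, 8.38 and 4.74 CPM in the 4 naive libraries and at 7.37, 8.59, 8.54 and 10.1 CPM in the 4 IL-15 libraries. It did not pass within KO (log2 change 0.52 ± 0.24 (SE), adjusted p = 0.0982), while WT went from 28.3 to 34.2 CPM in naive libraries down to 1.92 to 5.33 CPM with IL-15, a difference of 3.50 ± 0.35 (SE), adjusted p = 7.73e-05. Fcer1g itself differed by 1.93 ± 0.39 (SE), adjusted p = 0.0154, since it fell in WT and was near 0 in both KO groups. Cish rose in both genotypes, by 3.00 in KO and 1.73 ± 0.19 in WT, a difference of 1.27 ± 0.27 (SE), adjusted p = 0.0201.

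Several chaperones were among these genes: 11 of 39 cytosolic and mitochondrial chaperones had a more positive change in KO and 0 a more negative one. Hspa8, the constitutive HSP70, stood at 1362, 1727, 1590 and 1600 CPM in the 4 naive libraries and at 2150, 2485, 2068 and 2394 CPM in the 4 IL-15 libraries in KO, a rise without overlap (log2 change 0.53 ± 0.16 (SE), adjusted p = 0.0121). In WT it stood at 4639 ± 1283 CPM in naive WT and 2199 ± 69.6 CPM in IL-15 WT, with WT naive replicate 1 at 2744 CPM and the others from 5003 to 5549 CPM, and the difference of the changes was 1.61 ± 0.23 (SE), adjusted p = 0.00166. Hsp90ab1, the constitutive HSP90, stood at 1205, 1175, 1239 and 1200 CPM in the 4 naive libraries and at 2005, 2093, 1784 and 2106 CPM in the 4 IL-15 libraries in KO (log2 change 0.73 ± 0.10 (SE), adjusted p = 1.52e-05) and at 2216 ± 251 CPM in naive WT and 1994 ± 153 CPM in IL-15 WT (difference 0.88 ± 0.15 (SE), adjusted p = 0.00445). For both genes the IL-15 libraries of the 2 genotypes covered overlapping ranges, and the naive KO libraries lay below all naive WT ones. Xbp1, given above for KO, stood at 131 ± 9.14 CPM in naive WT and 124 ± 6.05 CPM in IL-15 WT (difference 0.77 ± 0.14 (SE), adjusted p = 0.00706). P4ha1, a collagen prolyl hydroxylase, stood at 29.6, 26.3, 18.7 and 25.1 CPM in the 4 naive libraries and at 106, 108, 113 and 135 CPM in the 4 IL-15 libraries in KO (log2 change 2.22 ± 0.20 (SE), adjusted p = 3.72e-08) and at 74.7 ± 24.2 CPM in naive WT and 121 ± 12.8 CPM in IL-15 WT (difference 1.53 ± 0.27 (SE), adjusted p = 0.00706). For Xbp1 and P4ha1, too, the IL-15 ranges of the genotypes overlapped and the naive KO libraries lay below all naive WT ones. Unlike the 2 chaperones, P4ha1 rose in WT as well (log2 change 0.69 ± 0.19 (SE), adjusted p = 0.00453).

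Myh9, Pcnt and Clspn, with a more negative change in KO, rose in both genotypes and stood higher in naive KO than in naive WT cells. Their summed exon lengths were 12928, 12154 and 7186 bases. Genes with 10 kb or more of exon had a median change of 0.24 in KO and 0.55 in WT. For those from 5 to 10 kb the medians were 0.05 and 0.13. The part of length in these differences was not tested. Myh9, non-muscle myosin heavy chain IIA, stood at 883, 610, 421 and 498 CPM in the 4 naive libraries and at 1924, 1712, 1797 and 1457 CPM in the 4 IL-15 libraries in KO (log2 change 1.51 ± 0.26 (SE), adjusted p = 0.000115). In WT it stood at 100 ± 40.2 CPM in naive WT and 1542 ± 349 CPM in IL-15 WT, and the difference was −2.43 ± 0.36 (SE), adjusted p = 0.00242. Pcnt, the centrosome scaffold pericentrin, stood at 17.7, 24.3, 12.4 and 22 CPM in the 4 naive libraries and at 117, 90.6, 125 and 83.4 CPM in the 4 IL-15 libraries (log2 change 2.44 ± 0.19 (SE), adjusted p = 4.82e-09), with 5.88 ± 0.801 CPM in naive WT and 104 ± 12.1 CPM in IL-15 WT (difference −1.70 ± 0.26 (SE), adjusted p = 0.00277). Clspn, the replication checkpoint adaptor claspin, stood at 8.74, 4.13, 4.51 and 5.75 CPM in the 4 naive libraries and at 88.3, 91.2, 96.1 and 80 CPM in the 4 IL-15 libraries (log2 change 3.99 ± 0.19 (SE), adjusted p = 5.49e-12), with 1.77 ± 0.183 CPM in naive WT and 83.6 ± 9.54 CPM in IL-15 WT (difference −1.57 ± 0.26 (SE), adjusted p = 0.00417). For each of the 3 the naive WT libraries lay below all naive KO ones while the IL-15 libraries of both genotypes overlapped. With 1 library left out at a time the counts of more positive and more negative genes were 112 and 283, 35 and 58, and 40 and 69 without WT naive replicates 1, 2 and 3, and 40 and 84, 320 and 434, 37 and 63, and 30 and 56 without WT IL-15 replicates 1 to 4. They were 49 and 86 and 55 and 95 without KO naive replicates 2 and 4, and 45 and 80, 33 and 65, and 31 and 55 without KO IL-15 replicates 1, 2 and 4.

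**Figure D5:**
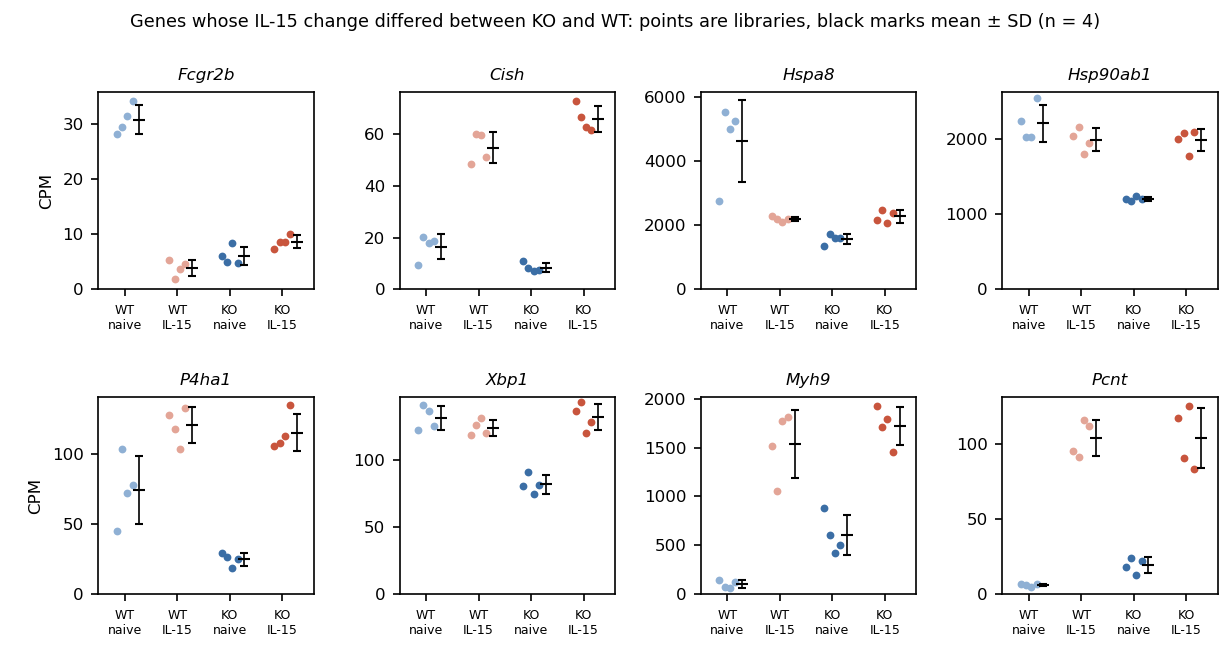
CPM (y axes, from 0) of 8 genes whose change with IL-15 differed between KO and WT, in the 4 spleen groups (x axes); points are libraries and black marks the mean ± SD (n = 4). The IL-15 groups of WT and KO overlap, except for Fcgr2b and Cish. The naive groups lie apart, except for Cish.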

How the data were processed

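Per the labels' protocols, RNA came from Qiagen RNeasy Plus Micro columns and poly(A) libraries from the NEBNext Ultra II Directional kit. Strand use in counting, step order, settings and annotation release are unknown from the sources used here. The authors deposited expected counts for 38215 genes in 24 libraries, of which 5.47% were not whole. The submitters' processing notes name cutadapt 1.9, STAR 2.5.2a, RSEM 1.2.30 and GRCm38.

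Counts were rounded and analysed with edgeR 4.0.16 in R 4.3.3 (filterByExpr, TMM factors, robust quasi-likelihood fit of the 16 spleen libraries, Benjamini-Hochberg adjustment, threshold 0.05), and the fit was tested on simulated data. CPM values are counts-per-million on TMM-scaled libraries, with a prior count of 2 where logged. Alternatives used DESeq2 1.42.0, limma 3.58.1 (voom) and other filters, scalings and libraries. GENCODE M21 gave exon length and GC of 98.6% of tested genes. RefSeq promoters were matched by Ensembl gene identifier, or by symbol where that gave none, for 66.1% of tested genes.

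The 40 gene lists, 12 marker lists and tests were chosen with earlier results of these data known. The rule named 261 genes: the first 3 of each list, up to 4 with the smallest p in each, the 12 largest changes each way among genes averaging 5 CPM or more, and 15 genes whose change differed between genotypes. The text prints part of them; others were picked after their values were seen. Depth was 9683382 to 30200109 counts per KO library. Some genes are not reported here.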

Additional observations from a re-analysis of the deposited data

Results flagged for a closer look

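Of 178 groups of 4 libraries examined gene by gene, 10 held a library far from the other 3 (by the gap to its nearest neighbour over the group's range, Dixon's test), where chance alone marks about 1 in 20 groups. In the naive libraries these were Myc (KO naive replicate 2 at 54.5 CPM, the highest), Cx3cr1 (KO naive replicate 1 at 32.8 CPM, the lowest) and Ifit3 (KO naive replicate 2 at 17.4 CPM, the highest). Ccl1 (0.0401 CPM) and Fosl1 (0.042 CPM) were read in 1 naive library only. In the IL-15 libraries Prf1 (950 CPM in replicate 2, the highest), Itgb3 (236 CPM) and Cd247 (84.9 CPM, both the lowest and in replicate 1) and H2-K1 (2496 CPM in replicate 2, the lowest) stood apart. P2rx7 (0.0616 CPM) was read in 1 IL-15 library only. For Ccl1, Fosl1 and P2rx7 the ratio is at its maximum whenever 1 library alone holds a read. The rate of 1 in 20 therefore does not apply to them. In none of these 10 groups did the outlying library reach the range of the other treatment.

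For 11 genes described in the report the change with IL-15 differed between genotypes (edgeR's test of the difference, adjusted p). On the log2 scale, KO minus WT, it was more positive in KO for Fcgr2b (3.50, 7.73e-05), Fcer1g (1.93, 0.0154), Hspa8 (1.61, 0.00166), P4ha1 (1.53, 0.00706), Cish (1.27, 0.0201), Hsp90ab1 (0.88, 0.00445) and Xbp1 (0.77, 0.00706). It was more negative for Myh9 (−2.43, 0.00242), Pcnt (−1.70, 0.00277), Clspn (−1.57, 0.00417) and Clec2d (−1.34, 0.0109).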

How the results depend on the processing

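The counts of genes that rose and fell in KO stayed within 1.5 times under every alternative run: 2407 to 2880 and 2251 to 2890 with 1 KO library left out, 3261 and 2791 with DESeq2, 3392 and 3378 with voom and library weights, 3288 and 2538 with all 24 libraries, 2696 and 2549 with the 8 KO libraries alone, and 2285 and 2516 for genes of at least 5 CPM. No called gene changed direction among those called in both fits. Of 70 called genes examined one by one, 66 kept the call throughout; the 4 others were mt-Co1 and Fcgr3, described above, and Ctla4 and Hspa8 (adjusted p = 0.0648 and 0.0765 with a block for library number). Of 219 called genes chosen by the naming rule 200 kept it in all 19 alternatives and 19 lost it in at least 1, among them Hspd1 with the library number block and Kit with the length and GC correction. Fcgr3 was at 0.0618 in the 8 KO libraries alone. Fcgr2b passed in KO with all 24 libraries (0.0292), with voom (0.0155) and without KO naive replicate 3 (0.0309), and Fcer1g without KO naive replicate 2 (0.0186). The counts of genes whose change differed between genotypes were less stable. More positive and more negative genes numbered 218 and 474 with DESeq2, 502 and 818 with voom, and 99 and 276 with all 24 libraries, and 30 to 320 and 55 to 434 with 1 library left out; 254 were more negative at a mean of at least 5 CPM and 117 more positive with the length and GC correction. Deviations from the group means correlated weakly between naive and IL-15 KO libraries of the same replicate number (0.203, 0.079, −0.066 and −0.006). Those of unlike number ranged from −0.18 to 0.148. Such values cannot tell whether libraries shared an animal or a day. With a block for replicate number 2817 genes rose and 2677 fell. The block for library number used only the 3 pairs of each genotype whose number stood in both groups, so that fit held fewer libraries. In it 2195 genes rose and 1963 fell, and edgeR called 0 and 0 differences, with 1328 genes at an unadjusted p under 0.05. With either block the cause of a lost call was not tested. Of 1518 list counts 1388 stayed within 1.5 times. With voom 16 tRNA synthetase and ATF4 genes rose, and 21 cytosolic ribosomal protein, 31 oxidative phosphorylation and 14 mitochondrially encoded genes fell. With the 8 KO libraries alone 17 ribosomal protein and 3 mitochondrially encoded genes fell, and with the library number block 12 proximal ITAM and 11 cytoskeletal genes.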

Other observations

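Among genes outside the lists of the report, Dtx1, Hes1, Ppbp, Itga2b, Gp1bb, As3mt and Acp5 were lower with IL-15 in KO cells. Dtx1, a Notch target, stood at 80, 77.7, 75.3 and 88.6 CPM in the 4 naive libraries and at 1.51, 2.4, 3.17 and 1.76 CPM in the 4 IL-15 libraries. The groups did not overlap, a 36-fold fall (log2 change −5.17 ± 0.28 (SE), adjusted p = 3.45e-11 by edgeR). Hes1, another Notch target, went from 23.2 ± 5.28 to 2.99 ± 0.936 CPM (mean ± SD, n = 4 and 4) (log2 change −2.96 ± 0.32 (SE), adjusted p = 4.52e-07). Ppbp, a platelet chemokine, had 895 counts in the naive libraries and 0 with IL-15, at least 455-fold lower against a floor of 3 counts over the IL-15 group. The platelet genes Itga2b, 12.5 ± 2.59 to 0.559 ± 0.324 CPM, and Gp1bb, 15.4 ± 2.55 to 1.01 ± 0.383 CPM, fell with the platelet marker sum given in the report. As3mt, an arsenic methyltransferase, fell from 154 ± 14.2 to 13.1 ± 1.57 CPM, and Acp5, a tartrate-resistant acid phosphatase, from 116 ± 16.0 to 10.8 ± 0.633 CPM.

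In the other direction, Adam8, a membrane protease, stood at 0.397, 2.08, 1.94 and 0.923 CPM in the 4 naive libraries and at 93.5, 95.1, 101 and 81.7 CPM in the 4 IL-15 libraries, far apart (log2 change 6.01 ± 0.37 (SE), adjusted p = 2.3e-10). Mt1, a metal-binding metallothionein, stood at 0.795, 0.401, 0.856 and 0.042 CPM in the 4 naive libraries and at 20.2, 16, 21.9 and 20 CPM in the 4 IL-15 libraries, without overlap (log2 change 5.32 ± 0.50 (SE), adjusted p = 7.87e-08). Rgs16, a regulator of G protein signalling, rose from 2.74 ± 1.56 to 73.0 ± 7.86 CPM, and Gpr141, an orphan receptor, from 0.383 ± 0.658 to 41.6 ± 6.96 CPM. For none of the 11 genes named here did the change differ between KO and WT at the threshold (adjusted p 0.34 to 1). These genes were picked from the largest changes outside the lists, after their values were seen.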
